A study of Mus musculus with 2 samples.

Results

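The transcripts of 10 genes that mark tissue macrophages, C1qa, C1qb, C1qc, Vcam1, Hmox1, Slc40a1, Cd163, Spic, Axl and Mertk, were followed through the bone marrow of a control mouse and a DKO mouse. The genes were taken by symbol, with earlier results of these data known, and all 10 were among the 32285 genes of the single-cell count tables. The DKO mouse carried floxed Ddx41 deleted by VavCre together with a germline loss of cGas (VavCre:Ddx41 fl/fl, cGAS-/-). The control, labelled WT, was by the study's methods a Ddx41 fl/fl littermate that lacked VavCre and had intact cGas alleles, so both mice carried the floxed allele. Both were 2 months old, and femoral marrow was flushed with PBS and captured unsorted with Chromium Single Cell 3′ v3 chemistry, in which a unique molecular identifier (UMI) tags every captured transcript and counting is from the 3′ end. VavCre is active in hematopoietic cells and, as the study states, also in oocytes and endothelial cells. There was 1 library per genotype, so no difference between genotypes was tested, and every interval is a 95% interval that covers counting error only.

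Macrophages of the marrow sit at the center of erythroblastic islands, where they hold maturing erythroblasts, engulf their expelled nuclei and clear worn red cells. The iron of the engulfed heme is set free by heme oxygenase and leaves the cell through ferroportin, so that it can be used again for hemoglobin. The same cells make C1q, the recognition protein of the classical complement pathway, and carry receptor kinases that recognize phosphatidylserine on dying cells through bridging ligands.

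Once empty droplets, damaged cells and doublets were removed, 18649 control cells (119287273 UMIs, median 4890 per cell) and 13719 DKO cells (114664975 UMIs, median 6900 per cell) remained. The deposited control table listed every barcode, and control cells were called for the present work, whereas the DKO table listed called cells only, and 81 called barcodes occurred in both libraries. Hemoglobin UMIs were 28.4% of all control UMIs and 36.3% of all DKO UMIs. Over all cells, Ddx41 had 2418 control and 916 DKO UMIs (log2 ratio of DKO over control -1.34, interval -1.46 to -1.23) and Cgas 1616 and 830 (log2 ratio -0.90). In macrophage-like cells, Ddx41 had 39 and 8 UMIs (log2 ratio -1.57, interval -3.01 to -0.59) and Cgas 31 and 16 (log2 ratio -0.33, interval -1.34 to 0.54). Whether the counted 3′ ends lie within the deleted parts of Ddx41 and Cgas was not given in the sources used here.

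The 3 C1q genes are neighbors on chromosome 4 of GRCm38. C1qb (136880129 to 136886187), C1qc (136889804 to 136893065) and C1qa (136895917 to 136898803) lie in this order on the minus strand, with gaps of 3616 and 2851 bp, and no other annotated gene falls in their span of 18675 bp. The other 7 genes lie on 7 other chromosomes, namely Vcam1 on 3, Hmox1 on 8, Slc40a1 on 1, Cd163 on 6, Spic on 10, Axl on 7 and Mertk on 2. The annotated Vcam1 gene (116109949 to 116129688) overlaps Gm43109 on the other strand, and Mertk (128698956 to 128802894) overlaps Gm14011 on the other strand and Gm23172 on its own, so their reads may not be separable if strand was not used in counting, which was not given in the sources used here.

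RefSeq promoter sequences (GRCm38.p6) were at hand for 6 of the 10 genes (C1qb, C1qc, Cd163, Spic, Axl and Mertk). They were searched on both strands for AGGAAGT, the extended PU-box bound by PU.1, the ETS factor that macrophage development requires and to whose family Spi-C, the product of Spic, belongs. The motif occurred in the 250 bases before the start of C1qb, C1qc and Spic, that is in 3 of 6 genes, against 7.69% of 32851 promoters of the same length. In each case it lay on the other strand and reads ACTTCCT, at 53 to 47 bases before the start of C1qb, 195 to 189 before C1qc and 48 to 42 before Spic. The 3 windows, chr4:136886201-136886450, chr4:136892915-136893164 and chr10:88683024-88683273, all on the minus strand, are printed because 2 of them belong to C1q genes and 1 to the ETS factor itself, with the motifs in capitals.
C1qb: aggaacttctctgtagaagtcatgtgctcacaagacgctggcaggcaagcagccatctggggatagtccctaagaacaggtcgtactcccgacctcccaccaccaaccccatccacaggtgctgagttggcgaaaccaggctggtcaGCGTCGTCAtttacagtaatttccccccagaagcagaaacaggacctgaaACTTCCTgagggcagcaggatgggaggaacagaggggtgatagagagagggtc
C1qc: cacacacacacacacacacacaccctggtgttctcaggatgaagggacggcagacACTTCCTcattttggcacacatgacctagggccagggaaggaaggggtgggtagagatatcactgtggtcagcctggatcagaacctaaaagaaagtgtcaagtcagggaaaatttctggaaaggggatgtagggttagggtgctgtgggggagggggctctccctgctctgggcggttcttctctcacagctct
Spic: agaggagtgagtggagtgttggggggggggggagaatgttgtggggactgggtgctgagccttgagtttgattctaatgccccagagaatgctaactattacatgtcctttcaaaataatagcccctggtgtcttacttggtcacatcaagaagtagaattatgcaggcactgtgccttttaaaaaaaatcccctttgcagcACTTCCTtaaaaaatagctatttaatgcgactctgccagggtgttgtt
The further stretch in capitals in C1qb, GCGTCGTCA, is TGACNNNGC on the other strand, the core of the antioxidant response element (1 of 6 genes, against 10.2% of all promoters). TGCTGAC (a partial Maf recognition element, in 3.81% of all promoters) and TGACTCA (the AP-1 element, in 4.46%) were found in none of the 6 windows. A match is a match of letters only, and binding was not measured. The RefSeq starts of C1qc and Spic lie inside the genes as annotated in GENCODE M21, and that of C1qb just outside.

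Cells were grouped by clustering without the 10 genes, Ddx41 and Cgas, and clusters were named from marker genes. Macrophage-like cells were 622 of the control cells (3.34%, interval 3.08% to 3.60%) with 1512153 UMIs and 398 of the DKO cells (2.90%, interval 2.63% to 3.20%) with 1010991 UMIs. All 9 macrophage markers (Cd5l, Fcna, Siglec1, Vsig4, Mrc1, Timd4, Adgre1, Lgmn and Sdc3) were detected in both libraries, at a summed level of 2845 CPM (UMIs scaled to a class total of 1000000) in control and 2522 CPM in DKO macrophage-like cells, compared with 86.0 and 58.1 CPM over all cells. In the macrophage-like cells every marker except Adgre1 (log2 ratio 0.21) was lower in the DKO library. The lower ratios ranged from -0.90 for Vsig4 to -0.070 for Mrc1, and several intervals included 0. These cells were shallow, with a median of 930.5 UMIs in the control versus 880.5 in the DKO library.

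All 10 genes had their highest level in macrophage-like cells among the 16 classes that numbered at least 50 cells in each library. Summed over the C1q genes, macrophage-like cells reached 5703 CPM in the control versus 3069 CPM in the DKO library. This was 12.4-fold and 12.3-fold the level of the next class, conventional dendritic-like cells, whereas late erythroid-like cells, which should lack C1q, were at 23.7 and 7.70 CPM. The macrophage-like level of C1q was thus 241-fold the late erythroid-like level in the control versus 399-fold in the DKO library. For the remaining genes the distance to the next class varied. It was 14.2-fold in the control versus 8.68-fold in the DKO library for Hmox1 (heme oxygenase 1), 13.4-fold and 5.97-fold for Axl, and 7.07-fold and 9.93-fold for Mertk, each over stromal-like or conventional dendritic-like cells. It was narrowest for Vcam1, at 3.80-fold and 1.21-fold over stromal-like cells, and for Slc40a1 (ferroportin), at 2.04-fold and 1.33-fold over an unnamed cluster led by Il1b and Csf3r.

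**Figure D1:**
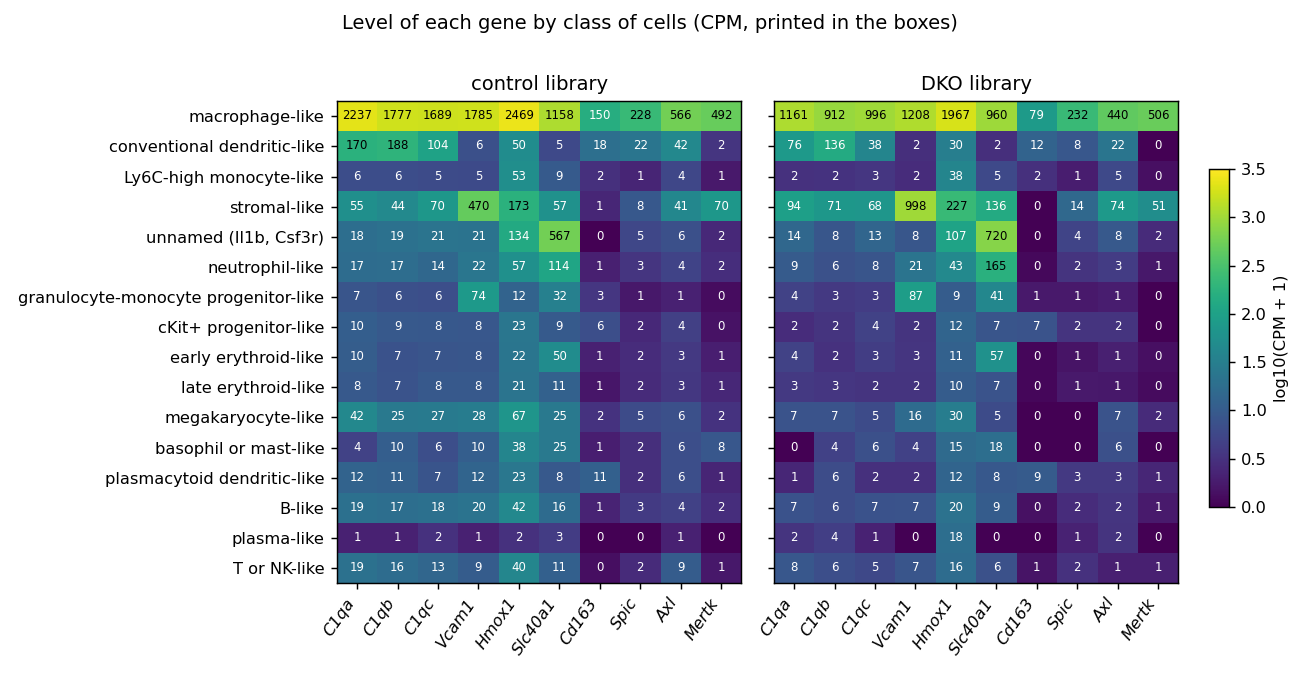
Level of the 10 genes (columns, CPM printed in the boxes and rounded, color on a log10 scale of CPM + 1) in 16 classes of cells (rows) in the control library (left) and the DKO library (right). The macrophage-like row is the brightest for all 10 genes in both libraries, and Slc40a1 and Vcam1 have the brightest boxes outside it.

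The transcripts of C1q, which is built from 3 different chains encoded by C1qa, C1qb and C1qc, were less abundant in DKO than in control macrophage-like cells. C1qa had 3383 UMIs in the control (2237 CPM, interval 2162 to 2314) and 1174 in the DKO library (1161 CPM, interval 1096 to 1230), giving a log2 ratio of -0.95 (interval -1.04 to -0.85). C1qb had 2687 UMIs (1777 CPM) and 922 UMIs (912.0 CPM), giving a log2 ratio of -0.96 (interval -1.07 to -0.85). C1qc had 2554 UMIs (1689 CPM) and 1007 UMIs (996.1 CPM), giving a log2 ratio of -0.76 (interval -0.87 to -0.66). The 3 chains thus differed between the libraries by similar amounts. Summed, they gave a log2 ratio of -0.89 (interval -0.95 to -0.83). This ratio was below 0 under all 19 alternative settings, from -1.06 to -0.51. Not all of them could turn its sign. Adding 0.5 count and thinning both libraries to the same number of UMIs reused the same cells (-0.89 and -0.88). Expected free RNA was taken off the control counts only (-0.95). At least 1 UMI of C1qb was found in 70.7% of control and 60.6% of DKO macrophage-like cells, and in 55.5% and 44.7% after every cell was thinned to 500 UMIs, which left out no cell. In late erythroid-like cells, which were deeper (medians of 5351 and 8055 UMIs), C1qb UMIs were found in 2.81% and 1.69% of cells. UMIs of all 3 chains were found together in 54.98% of control and 42.5% of DKO macrophage-like cells. The median cell held 6 C1q UMIs in the control versus 4 in the DKO library, and the highest cell 279 and 108.

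Of the genes that handle heme and iron, Hmox1, whose product opens the heme ring, had 3734 control UMIs (2469 CPM, interval 2391 to 2550) and 1989 DKO UMIs (1967 CPM, interval 1882 to 2056), giving a log2 ratio of -0.33 (interval -0.41 to -0.25). Slc40a1, whose product is the only known iron exporter, had 1751 UMIs (1158 CPM) and 970 UMIs (959.5 CPM), giving a log2 ratio of -0.27 (interval -0.39 to -0.16). Both ratios were of the opposite sign when every cell was given the same weight, with means of 3937 control and 4235 DKO CPM per cell for Hmox1 (log2 ratio 0.11) and of 1322 and 1581 CPM for Slc40a1 (0.26). Hmox1 UMIs were found in 69.3% of control and 76.6% of DKO cells, and Slc40a1 UMIs in 52.6% and 53.5%, so that no order between the libraries is read for these genes. Cd163, the scavenger receptor for hemoglobin bound to haptoglobin, was counted far less often, with 227 UMIs (150.1 CPM) and 80 UMIs (79.1 CPM). Its log2 ratio was -0.91 (interval -1.31 to -0.55), and -0.79 with equal weight per cell.

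Spic encodes the transcription factor Spi-C, which is needed for red pulp macrophages and for iron recycling macrophages of the marrow, and which heme induces. It had 344 control UMIs (227.5 CPM) and 235 DKO UMIs (232.4 CPM). The log2 ratio was 0.033 (interval -0.21 to 0.27), so a difference was not detectable at this depth. Vcam1, the adhesion molecule by which island macrophages hold erythroblasts through integrin alpha 4 beta 1, had 2699 UMIs (1785 CPM) and 1221 UMIs (1208 CPM). Its log2 ratio was -0.56 (interval -0.66 to -0.47), and -0.17 with equal weight per cell. Summed over Vcam1, Hmox1, Slc40a1, Cd163 and Spic, the log2 ratio was -0.38 (interval -0.43 to -0.33), and it was below 0 under 15 of 19 alternative settings, with a range from -0.73 to 0.063.

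Axl and Mertk encode receptor tyrosine kinases of the TAM family, which bind the bridging ligands Gas6 and, for Mertk, protein S on apoptotic cells and on expelled nuclei. Axl had 856 control UMIs (566.1 CPM, interval 528.8 to 605.3) and 445 DKO UMIs (440.2 CPM, interval 400.2 to 483.0), giving a log2 ratio of -0.36 (interval -0.53 to -0.20). Mertk had 744 UMIs (492.0 CPM) and 512 UMIs (506.4 CPM), giving a log2 ratio of 0.043 (interval -0.12 to 0.21). The intervals of the 2 ratios did not overlap. With equal weight per cell, however, Axl had a log2 ratio of -0.091 and Mertk of -0.27, so the order of the pair depended on the weighting.

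None of the 10 genes was past 2-fold (log2 ratio of at least 1 or at most -1) in macrophage-like cells. Among all 6487 genes with at least 20 CPM in either library, 183 were higher (2.82%) and 190 lower (2.93%) in the DKO library by this size. The median log2 ratio was -0.46 over the 10 genes and 0.083 over all 6487. C1qa and C1qb lay just inside the limit, and C1qb passed it under 5 of the alternative settings. RNA of other lineages also differed between the libraries in these cells. The summed level of 8 neutrophil markers was 7807 CPM in the control versus 2278 CPM in the DKO macrophage-like cells, that of 5 granulocyte-monocyte progenitor markers 646.8 and 61.3 CPM, and that of 6 Ly6C-high monocyte markers 1059 and 2239 CPM, and the part of these markers in the ratios of the 10 genes was not tested.

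**Figure D2:**
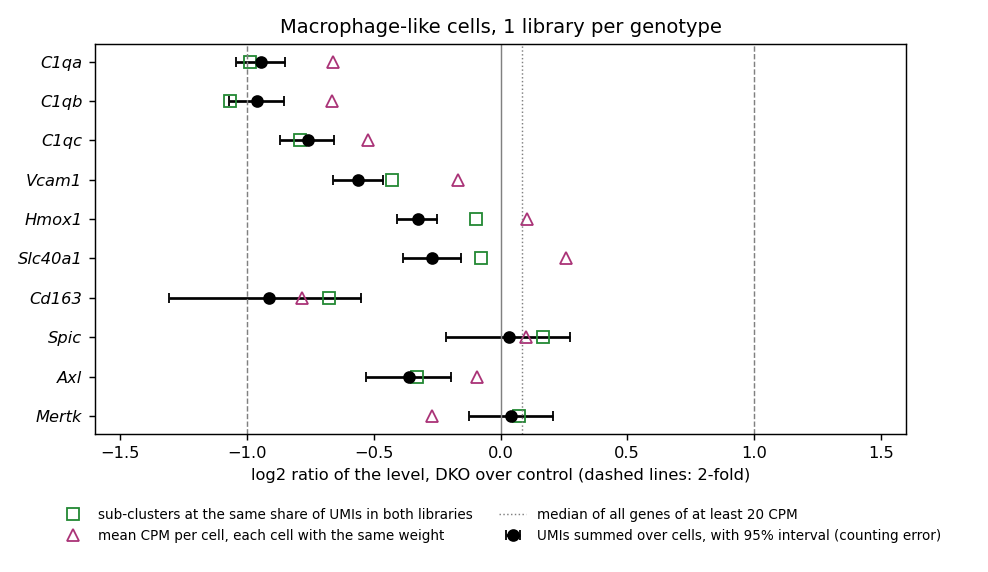
Log2 ratio of DKO over control (x axis) for each of the 10 genes (y axis) in macrophage-like cells, with 1 library per genotype. Black points are ratios of summed UMIs with 95% counting intervals, green squares give every sub-cluster the same share of UMIs in both libraries, purple triangles weight every cell equally, dashed lines mark 2-fold and the dotted line the median of all genes (0.083). All symbols of C1qa, C1qb, C1qc, Cd163, Vcam1 and Axl are left of 0, whereas those of Hmox1, Slc40a1 and Mertk fall on both sides and those of Spic right of 0.

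The macrophage-like cells fell into 8 sub-clusters, which are named here by their leading genes. The largest, led by Hmox1 and Fabp4, had 180 control and 99 DKO cells, and the next, led by C1qa, Fcna and Hmox1, had 159 and 108. The latter held the highest levels of C1qa, at 6038 CPM in the control versus 3538 CPM in the DKO library, of Vcam1, at 4309 and 3807 CPM, and of Hmox1, at 7001 and 7563 CPM. In contrast, the sub-cluster led by C1qb, Apoe and Aif1 (67 and 50 cells) had C1qa levels of 4767 and 2480 CPM with Slc40a1 at 422.5 and 329.6 CPM. The sub-cluster led by Ctsk and Atp6v0d2, genes of bone-resorbing cells, (59 and 50 cells) had C1qa levels of 1754 and 555.3 CPM with Slc40a1 at 73.9 and 21.2 CPM and Hmox1 at 242.5 and 177.2 CPM. With the libraries pooled, C1q and Hmox1 were both highest in the cells led by C1qa, Fcna and Hmox1 (12740 and 7215 CPM). Both were lower in those led by Ctsk and Atp6v0d2 (2921 and 208.0 CPM). In those led by C1qb, Apoe and Aif1, C1q was high beside less Hmox1 (9789 and 1606 CPM), so their ratio varied between sub-clusters.

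Mertk had a pattern of its own. It was highest in the sub-cluster led by Mertk and Pparg (76 control and 37 DKO cells), at 2031 CPM in the control versus 2513 CPM in the DKO library, and was found there in 93.4% and 86.5% of cells. In the sub-cluster led by C1qa, Fcna and Hmox1 it was at 171.6 and 188.8 CPM. The Mertk and Pparg sub-cluster also had the highest control level of Slc40a1 (2778 CPM, and 2205 CPM in the DKO library) and was the only one in which all 9 macrophage markers were raised. Cd163 had no UMI in either library in the sub-cluster led by Gpnmb and Trem2 (11 and 25 cells), and its highest control level (435.2 CPM, and 208.7 CPM in the DKO library) was in the sub-cluster led by C1qa, Fcna and Hmox1.

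The summed C1q level was lower in the DKO library in 8 of 8 sub-clusters, with log2 ratios from -2.62 in 18 control and 6 DKO cells led by Mertk, Vcam1 and Mrc1 to -0.25 in cells with 79.1% hemoglobin UMIs. Each of the 3 chains was also lower in 8 of 8. Single cells weighed heavily in the small sub-clusters. All 32 DKO UMIs of C1q among the cells led by Mertk, Vcam1 and Mrc1 came from 1 of 6 cells, and 279 of the 388 control UMIs in the sub-cluster led by Gpnmb and Trem2 came from 1 of 11 cells. Without the cell with the most C1q UMIs in each sub-cluster and library, the ratio was below 0 in each of the 7 sub-clusters that still held C1q UMIs in both libraries, but was -0.054 in that led by Gpnmb and Trem2. Counted per cell, the median number of C1q UMIs was lower in the DKO library in 6 sub-clusters, equal in 1 and higher in 1, the cells with 79.1% hemoglobin UMIs (4 control and 6 DKO UMIs). Cells with UMIs of all 3 chains were a smaller share in 7 sub-clusters and a larger one in that led by Mertk and Pparg (23.7% of control and 29.7% of DKO cells). Vcam1 was lower in 7 of 8 sub-clusters, Axl in 6, Hmox1 in 5, and Slc40a1, Spic and Mertk in 4. Cd163 was lower in 6 of the 7 sub-clusters where it was detected, 3 of which had at most 4 UMIs in either library. For Hmox1 the log2 ratio ranged from -1.28 to 0.49 and for Slc40a1 from -1.69 to 0.54. In the largest sub-cluster, that led by Hmox1 and Fabp4, Hmox1 was at 4132 CPM in the control versus 5802 CPM in the DKO library (log2 ratio 0.49, interval 0.32 to 0.66), while C1qb was at 1610 and 650.3 CPM (log2 ratio -1.28, interval -1.76 to -0.88).

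The sub-clusters also separated by depth. Those with a median under 1000 UMIs held 417 control and 282 DKO cells, and the others 205 and 116. In the shallow cells the log2 ratios were -0.68 for C1qa, -0.62 for C1qb and -0.55 for C1qc, but 0.16 for Hmox1 (4801 control and 5350 DKO CPM), 0.32 for Slc40a1 (1431 and 1790 CPM) and 0.40 for Spic (325.2 and 427.0 CPM). In the deeper cells they were -1.10, -1.22 and -0.84 for the 3 C1q genes, -0.95 for Hmox1 (1426 and 738.9 CPM), -0.65 for Slc40a1 (1036 and 658.0 CPM) and -0.18 for Spic (183.8 and 161.8 CPM). C1q was therefore lower in the DKO library at both depths, whereas Hmox1, Slc40a1 and Spic were not. Malat1, a transcript retained in the nucleus, was at 1170 control and 445.5 DKO CPM in the shallow cells and at 11210 and 10065 CPM in the deeper ones, and its part in these ratios was not tested.

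The mix of transcripts within these cells gave a measure that does not depend on their total UMIs. C1q UMIs were 49.6% (interval 48.9% to 50.4%) of the UMIs of C1q and the 5 iron recycling genes in control macrophage-like cells and 40.8% (interval 39.7% to 41.9%) in DKO cells, a difference of -8.78 percentage points. The share was lower in the DKO library in 8 of 8 sub-clusters, by between 3.53 and 18.2 points, and under 11 of 11 alternative settings, by between 6.95 and 9.72 points. Without the cell with the most C1q UMIs in each sub-cluster and library it was lower in 7 of 8 sub-clusters and 1.22 points higher in that led by C1qb, Apoe and Aif1. The 7 include the cells led by Mertk, Vcam1 and Mrc1. No DKO C1q UMI was left in them, so a lower share there was fixed by the removal. The share ranged widely between sub-clusters. In the cells led by Ctsk and Atp6v0d2 it was 86.4% in the control versus 80.4% in the DKO library, and in those led by Hmox1 and Fabp4 it was 43.8% and 25.6%. This share was chosen after the values of the 10 genes had been seen.

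**Figure D3:**
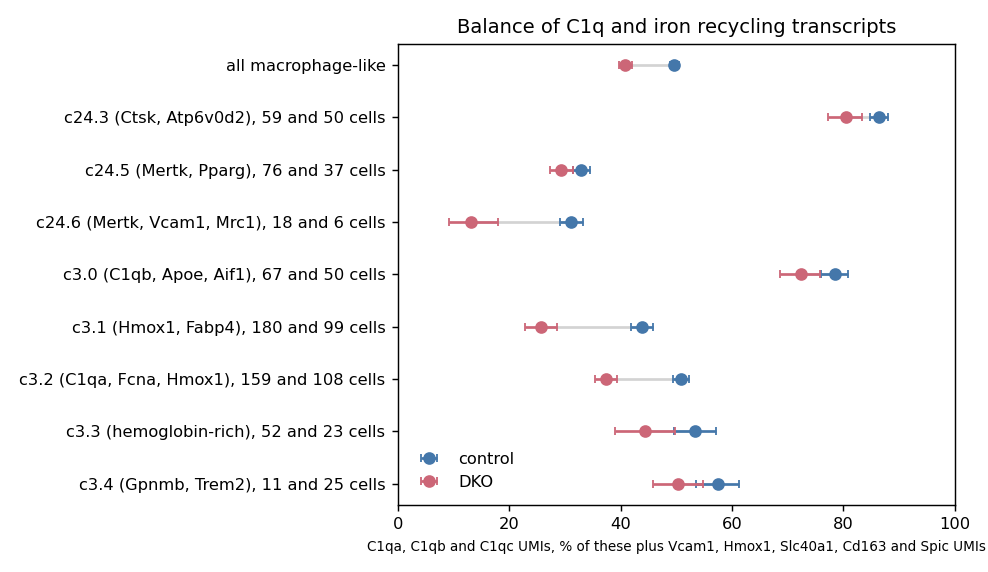
C1qa, C1qb and C1qc UMIs as a percentage of these plus Vcam1, Hmox1, Slc40a1, Cd163 and Spic UMIs (x axis) in all macrophage-like cells and in each of the 8 sub-clusters (y axis), with the numbers of control and DKO cells. Points are the control (blue) and DKO (red) library with exact 95% binomial intervals, and the red point lies left of the blue point in every row.

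With the cells grouped as reported, macrophage-like cells held a similar share of all C1q UMIs in both libraries. It was 64.7% (8624 of 13336 UMIs, interval 63.9% to 65.5%) in the control versus 64.9% (3103 of 4781 UMIs, interval 63.5% to 66.3%) in the DKO library. This similarity depended on the processing, and under most alternative settings the DKO share was the lower. Without doublet removal the control share was 58.1% (interval 57.3% to 59.0%) and the DKO share 52.8% (interval 51.4% to 54.2%). With 50 principal components the shares were 60.6% and 59.8%, and for cells with at least 3 macrophage markers 62.5% and 64.6%. In the reported grouping the share was also close between the libraries for Axl, at 62.0% and 63.1%, for Spic 57.0% and 60.4%, for Cd163 51.2% and 49.7%, and for Hmox1 45.9% and 45.3%. For the other 3 genes the intervals did not overlap. The share was larger in the DKO library for Mertk, at 72.2% (interval 69.4% to 75.0%) and 83.0% (interval 79.8% to 85.9%), and smaller for Vcam1 and Slc40a1. The macrophage-like share of Vcam1 UMIs was 50.3% in the control versus 41.7% in the DKO library, and that of Slc40a1 UMIs 26.0% (interval 24.9% to 27.0%) and 13.6% (interval 12.8% to 14.4%). Over all cells, C1q was at 111.8 CPM in the control versus 41.7 CPM in the DKO library (log2 ratio -1.42). Macrophage-like cells held 1.27% of all control and 0.882% of all DKO UMIs, and the C1q level within them had the log2 ratio of -0.89 given above, so that both a smaller share of UMIs and a lower level went with the lower total. Slc40a1 was at 56.5 and 62.3 CPM (log2 ratio 0.14, interval 0.093 to 0.19).

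**Figure D4:**
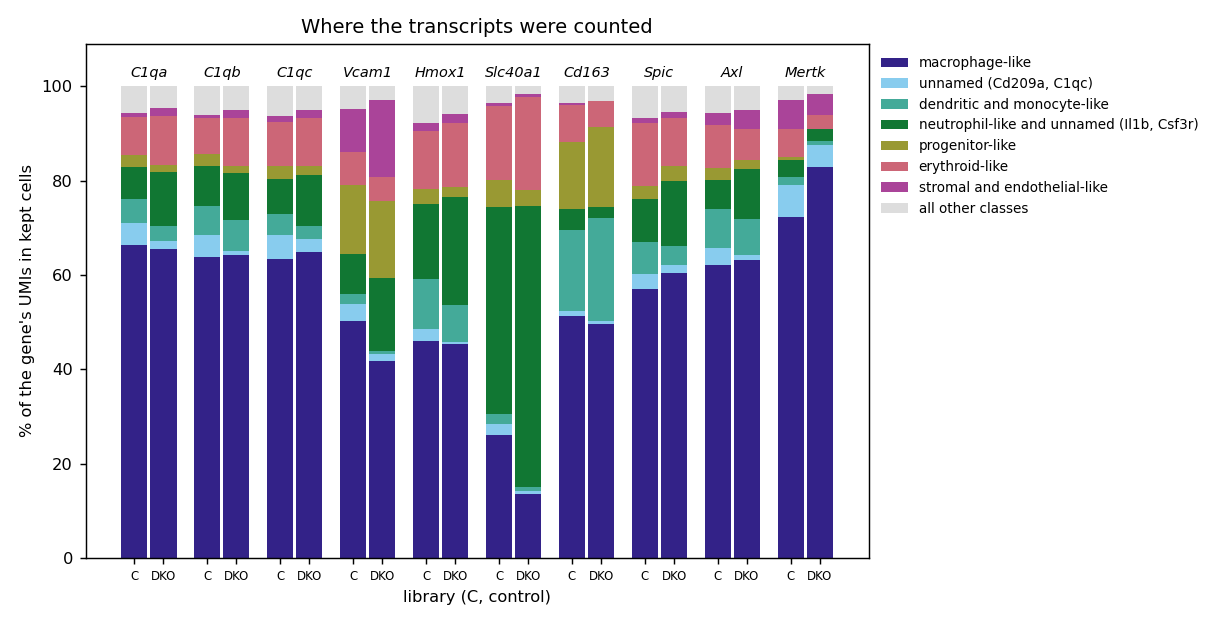
Percentage of each gene's UMIs (y axis) that each group of cell classes held (colors), in the control (C) and DKO library (x axis, a pair of bars per gene). With the cells grouped as reported, the dark blue macrophage-like part is of nearly the same height in both bars for the 3 C1q genes. It drops from 26.0% to 13.6% for Slc40a1, where neutrophil-like and Il1b-led cells (green) take the largest part.

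Part of the UMIs outside macrophage-like cells could be free RNA, which was measurable in the control library only. Control barcodes with at most 100 UMIs (1125245 barcodes with 4073556 UMIs) held C1qa at 120.8 CPM, Hmox1 at 299.0 CPM, Slc40a1 at 118.1 CPM, Vcam1 at 150.0 CPM and Mertk at 27.7 CPM. C1qa made up 12.2% of the UMIs of the 10 genes in these barcodes and 11.8% in control late erythroid-like cells, and Hmox1 30.2% and 30.1%, whereas Vcam1 made up 15.2% and 11.8% and Slc40a1 11.9% and 15.9%. The late erythroid-like level is taken as background below, and a level near it is not read as expression. In the 15 other classes, C1q was lower in the DKO library in 13, and whether this follows from less free C1q RNA was not tested.

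Slc40a1 in neutrophil-like cells stood apart from this background. It made up 45.6% of the UMIs of the 10 genes in control neutrophil-like cells, against 11.9% in the control barcodes with at most 100 UMIs and 15.9% in late erythroid-like cells. Neutrophil-like cells had 2221 control UMIs (113.7 CPM, 46.6% of 2957 cells) and 3418 DKO UMIs (165.4 CPM, 58.9% of 2989 cells), giving a log2 ratio of 0.54 (interval 0.46 to 0.62). Late erythroid-like cells had Slc40a1 UMIs in 5.01% and 4.39% of cells. The level was in the same order across the progenitor and neutrophil clusters in both libraries. It was 32.5 control and 40.7 DKO CPM in granulocyte-monocyte progenitor-like cells led by Elane, 77.9 and 94.4 CPM in neutrophil-like cells led by Camp, 134.9 and 200.0 CPM in those led by Mmp8, and 200.5 and 256.2 CPM in those led by Retnlg, a gene of mature neutrophils. It was highest in the unnamed cells led by Il1b and Csf3r (560 control and 408 DKO cells), at 567.2 CPM (60.0% of cells) in the control versus 720.1 CPM (73.0% of cells) in the DKO library.

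In each of these clusters the DKO level of Slc40a1 was the higher, with log2 ratios of 0.33 (interval 0.071 to 0.58) in the progenitor-like cells, 0.28 (interval 0.14 to 0.41), 0.57 (interval 0.43 to 0.71) and 0.35 (interval 0.22 to 0.49) in the Camp, Mmp8 and Retnlg cells, and 0.34 (interval 0.20 to 0.49) in the Il1b and Csf3r cells. The median log2 ratio of all genes was also above 0, at 0.14 in the progenitor-like, 0.16 in the neutrophil-like and 0.11 in the Il1b and Csf3r cells. The intervals of the progenitor-like and Camp cells included the median of their class. The Il1b and Csf3r cells divided into 4 sub-clusters whose intervals included 0, and 49 of the control but 327 of the DKO cells fell in a single one, that led by Il1b and Pla2g7. The macrophage-like ratio of Slc40a1 was of the opposite sign (-0.27), and the difference between these ratios was not tested. Neutrophil-like and Il1b-led cells together with early erythroid-like cells, which had 49.7 control and 57.3 DKO CPM, held most of the Slc40a1 UMIs. Neutrophil-like cells alone held 33.0% in the control versus 47.8% in the DKO library and made up 15.9% and 21.8% of the cells.

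**Figure D5:**
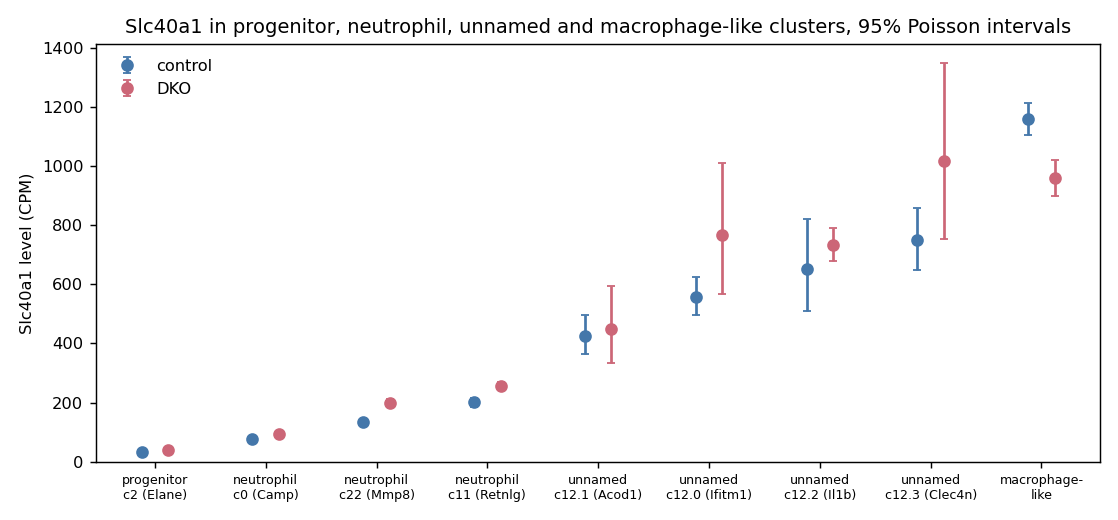
Slc40a1 level in CPM (y axis) in progenitor-like, neutrophil-like and unnamed clusters and in macrophage-like cells (x axis, with a leading gene of each cluster in parentheses) of the control (blue) and DKO (red) library, with exact 95% Poisson intervals. The level is higher from the Elane cluster to the Il1b-led cells, the DKO point lies above the control point in the 4 progenitor-like and neutrophil-like clusters and in the 4 sub-clusters of unnamed Il1b-led cells, and it lies below in macrophage-like cells.

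Vcam1 was also counted in stromal-like, granulocyte-monocyte progenitor-like and neutrophil-like cells. Stromal-like cells (211 control and 93 DKO cells) had 344 UMIs in the control (469.8 CPM) and 352 in the DKO library (997.8 CPM), giving a log2 ratio of 1.09 (interval 0.87 to 1.30). In these cells 1234 of 7597 genes (16.2%) were at least 2-fold higher in the DKO library, the median log2 ratio of all genes was 0.39, and hemoglobin was 21.8% of control and 6.96% of DKO UMIs, and the part of these in the Vcam1 ratio was not tested. In the stromal-like sub-clusters of more than 4 cells in each library the Vcam1 ratio was 1.49 (54 and 30 cells), 0.073 (86 and 40 cells) and 0.85 (36 and 19 cells). Endothelial-like cells were at 1377 and 2545 CPM but numbered 18 and 4. Vcam1 made up 52.0% of the UMIs of the 10 genes in control granulocyte-monocyte progenitor-like cells, against 15.2% in the control barcodes with at most 100 UMIs and 11.8% in late erythroid-like cells. These progenitors had it at 73.8 CPM (40.6% of 470 cells) and 86.7 CPM (48.5% of 200 cells). Their Vcam1 log2 ratio was 0.23 (interval 0.063 to 0.40), an interval that included their median of 0.14 over all genes. They held 13.6% of the control and 16.1% of the DKO Vcam1 UMIs, and stromal-like cells 6.41% and 12.03%. Neutrophil-like cells held 8.14% and 15.2%, at 22.4 control and 21.5 DKO CPM (log2 ratio -0.058, interval -0.25 to 0.14), compared with a background of 8.41 and 2.36 CPM. With the libraries pooled, Vcam1 was at 34.2 CPM in those led by Camp (1066 control and 707 DKO cells). It was at 7.79 CPM in those led by Mmp8 and 10.2 CPM in those led by Retnlg. The part of this make-up and of the background in the neutrophil-like ratio was not tested. Vcam1 was thus lower in the DKO library in macrophage-like cells, higher in stromal-like cells, and without a detectable difference in neutrophil-like cells. In granulocyte-monocyte progenitor-like cells it was higher, but its interval included the median of all genes. In cKit+ progenitor-like cells it was near its background, with 50 of 6408439 control and 8 of 3375716 DKO UMIs, and is not read as expression.

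Ly6C-high monocyte-like cells, the blood-bound monocytes from which inflammatory macrophages arise, had little of the 10 genes. C1qa was at 5.69 control and 2.16 DKO CPM in these 1143 and 553 cells, under its background level of 8.41 and 2.79 CPM. Hmox1 was the most abundant, with 707 UMIs (52.9 CPM, 38.6% of cells) and 302 UMIs (38.4 CPM, 37.6% of cells) compared with a background of 21.4 and 9.51 CPM. Its log2 ratio in the monocyte-like cells was -0.46 (interval -0.66 to -0.27). The background was also lower in the DKO library, and its part in this ratio was not tested. Axl (4.49 control and 4.96 DKO CPM) and Cd163 (2.10 and 2.03 CPM) were also above their background, which was 2.68 and 0.679 CPM for Axl and 0.610 and 0.151 CPM for Cd163. Mertk outside macrophage-like cells was highest in stromal-like cells among classes of at least 50 cells, at 69.7 and 51.0 CPM (51 and 18 UMIs). Cd163 was found at low level in conventional dendritic-like cells (18.2 control CPM, 15 and 6 UMIs), plasmacytoid dendritic-like cells (10.7 and 9.03 CPM) and cKit+ progenitor-like cells (5.93 and 6.81 CPM), compared with a background of 0.610 and 0.151 CPM.

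The 3 C1q genes were closest to one another in their pattern across cells. Over 74 profiles (clusters of at least 20 cells in a library, log2 CPM with 5 CPM added) and 13069 genes, C1qa was most like C1qb (Pearson r = 0.99) and C1qc (r = 0.98), followed by Axl (r = 0.97). Spic was most like Fcna (r = 0.96), Vcam1 like Igf1 (r = 0.95), Hmox1 like Axl (r = 0.92), Mertk like Epb41l3 (r = 0.91), Cd163 like Itgad (r = 0.87) and Slc40a1 like Ctsd (r = 0.86). Slc40a1 was the member least like C1qa (r = 0.69). The least alike pair was Slc40a1 and Cd163 (r = 0.46). The profiles share libraries, depth and the contrast between macrophage-like and other cells, so these values describe the pattern and were not tested.

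Other genes of the same pathways were read in macrophage-like cells from lists of their names. Of 22 other complement genes, 12 had at least 20 CPM and none was past 2-fold in either direction, with a median log2 ratio of -0.18. Among them Cfp (properdin, which stabilizes the alternative pathway convertase) was at 322.7 control and 202.8 DKO CPM (log2 ratio -0.67, interval -0.91 to -0.43), and Calr, whose product binds the C1q tail, at 285.0 and 199.8 CPM (log2 ratio -0.51). In the other direction, Cd93, a receptor of phagocytes and endothelium, was at 64.8 and 100.9 CPM (log2 ratio 0.64, interval 0.22 to 1.05), Itgam, the alpha chain of complement receptor 3, at 131.6 and 179.0 CPM (0.44, interval 0.15 to 0.74), and Lrp1, an endocytic receptor, at 213.6 and 256.2 CPM (0.26, interval 0.021 to 0.50).

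Of 25 other genes of heme and iron handling, 19 had at least 20 CPM, 0 were higher and 1 was lower by 2-fold, with a median of -0.090. The lower one was Lcn2 (814.7 control and 198.8 DKO CPM, log2 ratio -2.03), an iron siderophore binding protein that is also among the neutrophil markers whose summed level differed in these cells. Ferritin genes were close between the libraries, with Ftl1 at 8668 and 7566 CPM (log2 ratio -0.20) and Fth1 at 11113 and 10439 CPM (-0.090). Blvrb, a biliverdin reductase acting after heme oxygenase, was at 586.6 and 333.3 CPM (log2 ratio -0.81), and Slc48a1, which carries heme out of the phagolysosome, at 133.6 and 143.4 CPM (0.11).

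Of 14 regulators, 12 had at least 20 CPM, with a median of 0.0030. Keap1, which holds NRF2 in check, was higher (24.5 control and 52.4 DKO CPM, log2 ratio 1.09, interval 0.47 to 1.75). Nr1h3, which encodes the oxysterol receptor LXR alpha, was lower (124.3 and 59.4 CPM, log2 ratio -1.05, interval -1.51 to -0.64). Bach1, the heme-sensing repressor of Hmox1 and Spic, was at 79.4 and 128.6 CPM (log2 ratio 0.70, interval 0.33 to 1.07), and Spi1, which encodes PU.1, at 302.9 and 313.6 CPM (0.051). Of 22 other genes of apoptotic cell uptake, 17 had at least 20 CPM with a median of 0.13, and 2 were higher by 2-fold. These were Pros1, which encodes protein S (20 control and 30 DKO UMIs, 13.2 and 29.7 CPM, log2 ratio 1.14, interval 0.30 to 2.06), and Stab1, a scavenger receptor (21 and 32 UMIs, log2 ratio 1.17, interval 0.35 to 2.06). Both reached 20 CPM in the DKO library only, and Mfge8 (21 control and 1 DKO UMI) and Marco (16 and 1 UMI) of the same list, which were lower, reached it in neither, so no direction is read from this count. Gas6, the ligand of both Axl and Mertk, was at 38.4 and 51.4 CPM (log2 ratio 0.43, interval -0.15 to 0.99). Of 11 genes of erythroblastic island adhesion, 8 had at least 20 CPM and 0 were past 2-fold, with a median of 0.088. Itga4, a subunit of the integrin that binds Vcam1, was at 159.4 and 298.7 CPM (log2 ratio 0.91, interval 0.66 to 1.16). Siglec1, a sialic acid receptor of macrophages, was lower, at 47.6 and 26.7 CPM (72 and 27 UMIs, log2 ratio -0.80, interval -1.53 to -0.18).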

How the data were processed

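Bone marrow cells of 1 control and 1 DKO mouse were profiled by droplet single-cell RNA sequencing. The deposited tables hold raw UMI counts per gene and barcode, which the authors made with Cell Ranger (the file headers give version 7.1.0 and the submitters' processing notes build mm10) without further normalization; the annotation version, and whether introns and strand were counted, were not given in the sources used here. No column of other samples was present. Control cells were called here by an order-of-magnitude rule (the 99th percentile over the 3000 deepest barcodes, divided by 10), supplemented by a multinomial test that set barcodes of at least 500 UMIs against the profile of those of at most 100 UMIs (10000 draws, FDR 0.01). A mitochondrial share above 20% removed 171 control and 215 DKO cells, and doublets were removed with Scrublet at a score of 0.226 in both libraries (337 and 208 cells). Leiden clusters (resolution 1.0) came from a graph of 15 neighbors on 30 principal components of 2000 variable genes, after scaling each cell to 10000 counts. Clusters of at least 100 cells that stayed unnamed or were named macrophage-like or stromal-like were divided further (15 components, resolution 0.5). This step was chosen after the data were seen. A cluster was named from markers when at least 3 were raised 1.5-fold and no other class led.

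UMIs were summed per class and library and scaled to CPM. Log2 ratios of DKO over control had 1 count added, with exact conditional binomial 95% intervals. Levels had exact Poisson intervals and shares Clopper-Pearson intervals. With 1 library per genotype, no test was made. The ratio was tested on simulated counts. The 10 genes and all lists were chosen with earlier results of these data known. The text names the 10 genes, the genes most alike to them, and list members past 2-fold; other list members were named after their values were seen. Positions are from GENCODE M21 (GRCm38), promoters from RefSeq. Depth limits most classes with few cells. Alternatives to cell calling, doublet and mitochondrial filters, clustering, naming, scaling and thinning were run, and 5 more were added after the data were seen. The work ran in Python 3.11.15 with scanpy 1.11.5, anndata 0.12.19, scikit-learn 1.9.0, igraph 0.11.9, scipy 1.17.1, numpy 2.4.6, matplotlib 3.10.9 and pandas 2.3.3.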

Additional observations from a re-analysis of the deposited data

How the results depend on the processing

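No paired analysis was possible because each genotype had 1 library, and for the same reason no replicate could be left out. In each setting below the first pair of values gives the log2 ratio of DKO over control of the summed C1q genes and of the summed iron recycling genes in macrophage-like cells (-0.89 and -0.38 as reported), the next pair the macrophage-like share of C1q UMIs in the control and DKO library (64.7% and 64.9%) and the last pair the macrophage-like share of cells (3.34% and 2.90%). Keeping only barcodes above the order-of-magnitude threshold gave -0.82 for C1q, 56.9% and 46.8%, and 1.09% and 0.499%, with the iron recycling ratio at -0.41. Keeping every barcode of at least 500 UMIs gave -0.52 and 0.030, 58.0% and 54.4%, and 2.85% and 2.34%. Keeping doublets gave -0.64 and -0.059, 58.1% and 52.8%, and 2.66% and 2.21%. A mitochondrial maximum of 10% gave -0.63 and -0.12, 55.4% and 52.8%, and 2.59% and 2.04%. Resolution 2.0 gave -0.69 and -0.20, 59.9% and 56.1%, and 2.74% and 2.36%, and resolution 0.5 gave -0.53 and -0.023, 49.2% and 45.5%, and 2.40% and 2.03%. Allowing the 10 genes among the variable genes gave -0.51 and 0.014, 45.0% and 44.1%, and 2.65% and 2.16%. Using 50 principal components gave -0.65 and -0.21, 60.6% and 59.8%, and 3.003% and 2.57%. Taking cells with UMIs of at least 3 macrophage markers gave -0.75 and -0.32, 62.5% and 64.6%, and 2.54% and 2.20%. The macrophage-like share of C1q UMIs was thus the lower for DKO in each of these settings except the last.

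Macrophage-like cells with under 10% hemoglobin UMIs gave -0.97 for C1q and -0.44 for the iron recycling genes, with 2 genes past 2-fold (C1qa and C1qb), and scaling without hemoglobin genes put 1 gene past it (C1qb). Taking the expected free RNA off the control counts gave -0.95 and -0.43. Of the settings added after the data were seen, sub-clusters with a median under 1000 UMIs gave -0.62 and 0.063 with 1 gene past 2-fold (Cd163), those with at least 1000 UMIs gave -1.06 and -0.73 with 2 genes (C1qa and C1qb), equal shares of the sub-clusters gave -0.95 and -0.19 with 1 gene (C1qb), equal weight per cell gave -0.62 and 0.052, and leaving out the cell with the most C1q UMIs in each sub-cluster and library gave -0.94 and -0.40 with 1 gene (C1qb). C1q was therefore lower in the DKO library in every setting run, whereas the iron recycling ratio turned its sign in 4 settings (every barcode of at least 500 UMIs, the 10 genes allowed, the shallow sub-clusters and equal weight per cell), and the cause was not tested. Depth limits Cd163 and Spic most, which had fewer than 350 UMIs each in macrophage-like cells of either library.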

Other observations

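A small unnamed cluster led by Cd209a, C1qc and Mertk (36 control and 13 DKO cells, 41.0% hemoglobin UMIs) also held several of the 10 genes. C1qa was at 699.3 CPM in the control (233 UMIs) and 180.4 CPM in the DKO library (31 UMIs), giving a log2 ratio of -1.91 (interval -2.54 to -1.41), and Hmox1 at 636.3 and 116.4 CPM (212 and 20 UMIs). C1qa UMIs were found in only 19.4% and 15.4% of its cells. The cluster stayed unnamed because more dendritic than macrophage markers were among its leading genes.

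In Ly6C-low monocyte-like cells (57 control and 39 DKO cells), the patrolling monocytes of the vessel wall, Hmox1 was at 284.6 CPM (47 UMIs) in the control versus 57.6 CPM (10 UMIs) in the DKO library, giving a log2 ratio of -2.20 (interval -3.46 to -1.30). It was found in 26.3% and 23.1% of these cells, and C1qa in 5 control UMIs and 0 DKO UMIs.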
